A study of Mus musculus with 2 samples.

Results

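The genes described here are Epc1, Epc2 and 8 further genes of core subunits of NuA4/TIP60, a histone acetyltransferase complex: Kat5, Ing3, Meaf6, Ep400, Trrap, Dmap1, Morf4l1 and Brd8. They were chosen by symbol, and all 10 were found among the 23234 genes of the table. RNA was taken from round spermatids, the haploid germ cells of the testis that follow meiosis, of C57BL/6 mice. There was 1 library of the genotype Wild type and 1 labelled Epc-dKO, whose mice are described as deficient in both EPC genes. The sources used here do not give the age of the mice, the alleles, any Cre driver or any pooling of animals. With 1 library per genotype there is no replicate error, no p-value is given, and every difference is between these libraries.

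TIP60 acetylates histones H4 and H2A on chromatin. EPC1 and EPC2 are scaffold proteins that hold the catalytic subunit KAT5 together with ING3 and MEAF6 in one module of the complex. EP400 is an ATPase that exchanges histone H2A variants, TRRAP is a large scaffold that docks transcription activators, and MORF4L1 and BRD8 carry domains of the kinds that bind modified histones. In spermatids histone acetylation rises before histones are replaced by transition proteins and protamines.

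Levels are given as FPKM, fragments scaled to transcript length and to a library total, so that genes can be compared within a library. The sources used here do not say how that total was set. A difference is given as the log2 ratio of FPKM + 1, the library labelled Epc-dKO over wild type, which understates the change of low genes. A gene was called expressed at a mean FPKM of 1 or more and higher or lower at 2-fold or more on this scale. By this rule 287 of 10438 expressed genes (2.75%) were higher and 196 (1.88%) were lower. Higher genes made up 59.4% of these calls, but 34.1% after both libraries were rescaled to the same larger sum and 39.9% with a pseudocount of 0.1. The rescaled values kept the minimum and the pseudocount of 1, so that setting counted 15151 genes and not the same set.

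None of the 10 genes passed the 2-fold rule in either direction (0 higher, 0 lower), and none passed a 1.5-fold rule, which 18.8% of expressed genes did. All 10 were expressed. They had 5 log2 ratios above 0 and 5 below, with a median of 0.02. Over all expressed genes the median was -0.05, and 45.6% were above 0. All 10 had a mean FPKM of at least 5, and over the genes at that level the median was 0.02, with 52.0% above 0. The sign of the median of the 10 changed with the setting: it was -0.02 when the upper quartiles of the libraries were set equal and -0.08 without Epc2.

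Depth could be read from the smallest values. For genes with few fragments, FPKM takes steps that are whole multiples of 1 fragment. Among 4472 genes above 0 and below 0.3 FPKM in both libraries, the log2 ratios without pseudocount piled up at -0.14, with 426 genes in a bin of 0.02 against a median of 6.5 genes per bin. This is where genes with equal fragment numbers fall if the library labelled Epc-dKO was 1.10 times as deep. With annotated lengths of single-transcript genes, the steps gave scaling totals of 36950000 fragments for the wild-type library and 40800000 for the library labelled Epc-dKO. At this depth 53.2% of 622 wild-type values and 52.4% of 613 in the other library lay within 0.05 of 1 to 4 whole fragments. The depth and the length correction were fitted on these same values, so this share describes the fit and is no separate check. These depths allow a rough fragment number and a 95% counting interval (exact binomial, Clopper-Pearson) for each member. The intervals cover counting error only and say nothing of the spread between animals.

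The library labelled Epc-dKO did not have lower EPC transcripts. Epc1 stood at an FPKM of 11.4 in wild type and at 13.6 in the other, from an estimated 1523 and 2007 fragments. Epc2 had 7.12 and 10.5, from an estimated 664 and 1086 fragments. Without a pseudocount the log2 ratio of Epc1 was 0.26, with a counting interval of 0.16 to 0.35, and that of Epc2 was 0.57, with an interval of 0.43 to 0.71. On the FPKM + 1 scale Epc2, at 0.51, had the ratio farthest from 0 of the 10 genes, and 24.8% of expressed genes had a ratio at least as large in either direction. A gene-level value includes exons outside a deleted part, so it does not check the genotype label.

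Both EPC genes contributed to the EPC transcript pool. Epc2 made up 38.5% of their summed FPKM of 18.5 in wild type and 43.7% of 24.2 in the library labelled Epc-dKO. This share does not depend on any scaling between the libraries. In the wild-type library Epc2 was the lowest of the 10 genes, and in the other it was number 7, above Ing3, Trrap and Brd8. Over these 2 libraries, the named genes nearest to Epc1 on the log2 (FPKM + 1) plane were Rab11fip2, Fam175b and C2cd3, at distances of 0.02 to 0.03. For Epc2 they were Pja2, Adam39 and Phf2, at 0.03 to 0.05.

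**Figure D1:**
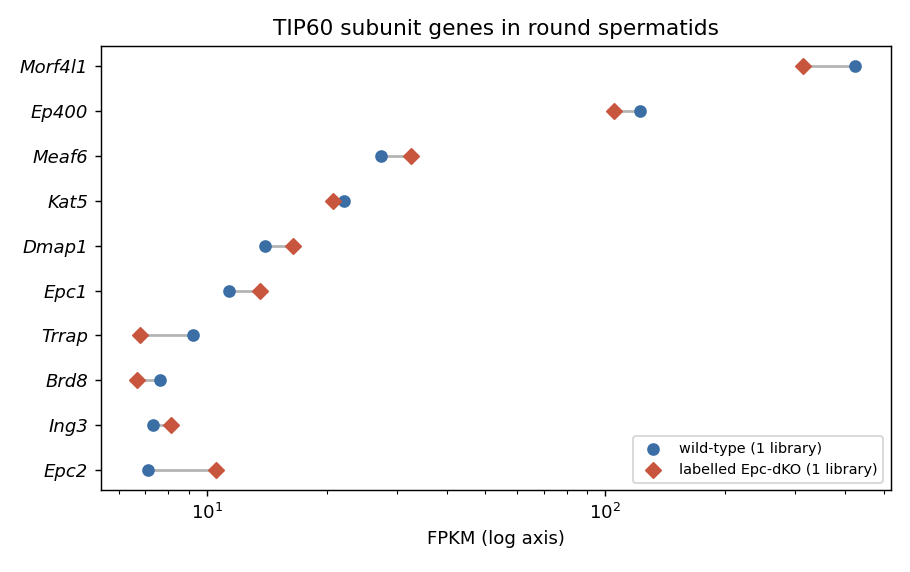
FPKM of the 10 genes on a log axis, with a circle for the wild-type library and a diamond for the library labelled Epc-dKO, 1 library each. Morf4l1 and Ep400 stand far above the rest in both libraries, and Epc2 is lowest in wild type, at 7.12, with 10.5 in the other library.

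Of the partners of the EPC proteins in the acetyltransferase module, Kat5 and Ing3 had counting intervals that included 0 and Meaf6 was slightly higher in the library labelled Epc-dKO. Kat5, the catalytic subunit, stood at an FPKM of 22.1 in wild type and at 20.8 in the library labelled Epc-dKO. Its log2 ratio without pseudocount was -0.09, and the counting interval of -0.24 to 0.06 included 0. Ing3, a PHD finger subunit, had 7.32 and 8.10, a log2 ratio of 0.15 with an interval of -0.05 to 0.34. Meaf6, a small subunit that the HBO1 and MOZ/MORF acetyltransferase complexes also hold, had 27.3 and 32.5, a log2 ratio of 0.25 with an interval of 0.11 to 0.40. Within a library, Kat5 stood at 1.94 times the FPKM of Epc1 in wild type and at 1.53 times in the library labelled Epc-dKO. Against Epc2 these ratios were 3.10 and 1.97, and they moved mainly with the EPC values.

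Ep400 and Trrap, the genes of the largest subunits, were both lower by less than 2-fold. Ep400 stood at an FPKM of 122.5 in wild type and at 105.2 in the library labelled Epc-dKO, with a log2 ratio without pseudocount of -0.22. With an estimated 30990 and 29392 fragments its interval was narrow, at -0.24 to -0.20. Trrap had 9.22 and 6.78, a log2 ratio of -0.44 with an interval of -0.51 to -0.38. Ep400 was thus 13.3 times as high as Trrap in wild type and 15.5 times in the other library.

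Morf4l1, whose chromodomain protein (also known as MRG15) binds methylated histone H3, was by far the most abundant member. It stood at an FPKM of 422.6 in wild type, where it was number 25 among expressed genes, and 313.3 in the library labelled Epc-dKO, where it was number 49. It alone made up 64.9% of the summed FPKM of the 10 genes in wild type and 58.7% in the other library. The sum of the 10 was 651.1 and 533.9, and without Morf4l1 it was 228.5 and 220.7, so most of the gap came from this gene. Its log2 ratio without pseudocount was -0.43, with an interval of -0.46 to -0.40. Its values are uncertain because near-identical copies can share reads. A730098P11Rik, listed by RefSeq as a synonym of the pseudogene Morf4l1-ps1, had an FPKM of 39.5 and 29.8. It stood at 0.75 of its wild-type FPKM in the library labelled Epc-dKO, and Morf4l1 at 0.74. How the counting divided reads between these loci was not tested.

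Dmap1 and Brd8 had modest levels and small differences of opposite sign. Dmap1, for a subunit that the SRCAP complex also holds, stood at an FPKM of 14.0 in wild type and at 16.4 in the library labelled Epc-dKO, giving a log2 ratio without pseudocount of 0.23 and an interval of 0.09 to 0.38. Brd8, for the bromodomain subunit, had 7.62 and 6.66, a log2 ratio of -0.20 with an interval of -0.32 to -0.07.

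At the median transcript length most of the differences were larger than counting error, while all were small. The intervals left out 0 for 8 of the 10 genes, Kat5 and Ing3 being the exceptions. They also did so for 68.1% of 8669 expressed genes with a coding length, so this is not particular to the 10. Those genes reach down to a mean FPKM of 1, while the lowest mean of the 10 was 7.14, for Brd8. Intervals narrow with more fragments, and whether the share differs at matched levels was not tested. The fragment numbers rest on the median length of annotated coding transcripts. With the longest transcript of each gene 9 intervals left out 0, and with the shortest 6 did, those of Epc1 and Trrap then including it.

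**Figure D2:**
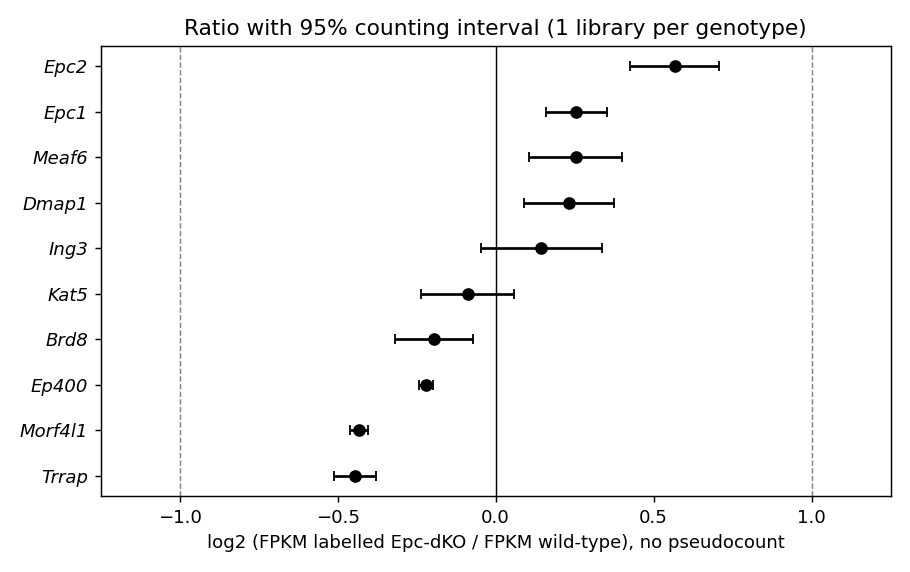
Log2 ratio of FPKM without pseudocount, with exact 95% counting intervals as bars, for 1 library per genotype. The dashed lines mark 2-fold, the solid line marks no difference, and all 10 intervals lie inside the dashed lines.

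Set against the transcriptome, the genes were well expressed, with ratios inside and outside the quartiles of all expressed genes. Their median FPKM was 12.7 in wild type and 15.0 in the library labelled Epc-dKO, against 5.21 and 5.04 for all expressed genes. Levels spanned 59.4-fold from Epc2 to Morf4l1 in wild type and 47.0-fold from Brd8 to Morf4l1 in the other library. The 5 highest, Morf4l1, Ep400, Meaf6, Kat5 and Dmap1, kept their order, and Epc1 stayed number 6 in both. Ing3, Brd8 and Epc2 lay between 7.12 and 7.62 in the wild-type library, and without replicates their order there cannot be set against a spread. Of the 10 log2 ratios on the FPKM + 1 scale, 6 lay inside the quartiles of all expressed genes (-0.34 to 0.24). Quartiles enclose the middle of all genes by definition, so 6 of 10 inside is not particular to these genes. Meaf6 and Epc2 lay above them, and Trrap and Morf4l1 below. Among the 5328 genes whose mean FPKM was at least 5, to which all 10 belong, 5.09% passed the 2-fold rule. The quartiles of this set were -0.24 and 0.29. Meaf6, at 0.25, lay inside them, while Epc2, Trrap and Morf4l1 stayed outside.

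**Figure D3:**
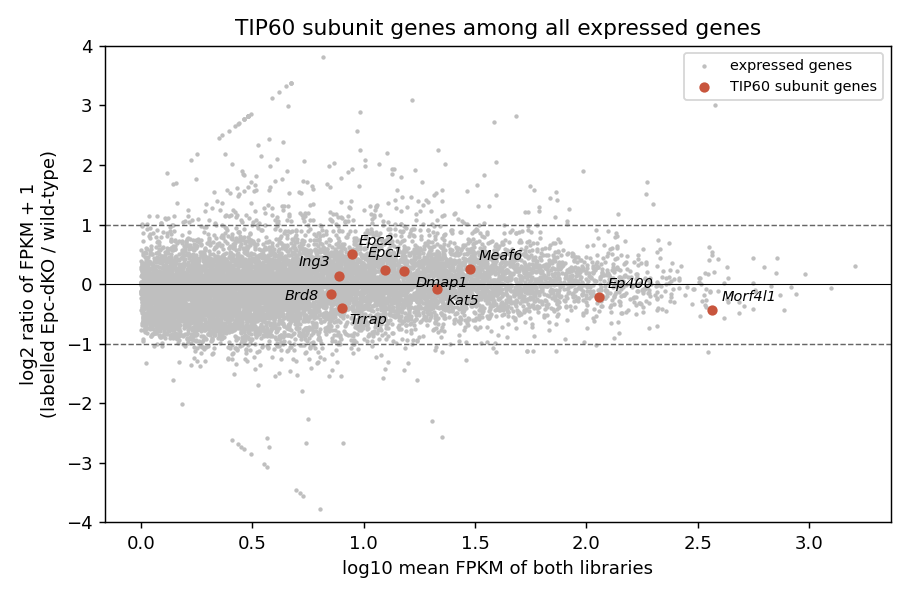
Each grey point is an expressed gene, with log10 mean FPKM on the x axis and the log2 ratio of FPKM + 1 on the y axis; red points are the 10 TIP60 subunit genes and dashed lines mark 2-fold. The red points lie between -0.43 and 0.51, and 67 genes fall outside the plotted range.

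The other 9 subunit genes of the complex also stayed within 2-fold, with 4 log2 ratios above 0 and 5 below and a median of -0.07. Ruvbl2, for an AAA+ ATPase, was the most abundant, with an FPKM of 84.9 in wild type and 80.9 in the library labelled Epc-dKO, while its partner Ruvbl1 had 9.02 and 7.14. Morf4l2, the relative of Morf4l1, had the largest difference, at 5.49 and 2.88 (log2 ratio -0.74). It was the 1 gene of the 9 past 1.5-fold, a rule that 18.8% of expressed genes passed. Morf4l1 stood at 77.0 times the FPKM of Morf4l2 in wild type and 108.8 times in the other library. Vps72, for a histone variant chaperone, had 21.5 and 17.4, and Mrgbp, listed as 1600027N09Rik, had 6.28 and 4.82. Actl6a, Actb, Yeats4 and Mbtd1 had log2 ratios of 0.04 to 0.20.

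Genes of complexes that share a subunit with TIP60 are given for comparison, and their counts past the rule are read against the 2.75% and 1.88% of all expressed genes. Of the 9 expressed genes of the SRCAP complex, which deposits H2A.Z, 0 passed 2-fold and the median was -0.07. Most of them are TIP60 subunit genes already described, namely Dmap1, Ruvbl1, Ruvbl2, Actl6a, Yeats4 and Vps72. This list is therefore no separate comparison, and Srcap itself was not matched. The H2A.Z gene H2afz had an FPKM of 26.3 and 21.0. Of 19 expressed genes in a list of SAGA, which shares Trrap, joined with the ATAC subunit gene Tada2a, 0 passed and the median was -0.06. There, Supt20, listed as Fam48a, had 318.1 and 325.1, Taf9 had 265.2 and 254.4, and the largest differences were those of the deubiquitinase gene Usp22 (-0.62) and the acetyltransferase gene Kat2a (-0.49). Among 11 partners of MORF4L1 and its relatives, 0 passed, 2 were above 0, 9 were below and the median was -0.27, with Rbbp7 at -0.92. Of all expressed genes 45.6% were above 0. Without a pseudocount Usp22 stood at -1.01 and Rbbp7 at -1.24, past 2-fold. The share of all expressed genes past 2-fold without a pseudocount is not given here, and the 2.75% and 1.88% do not apply to it. With a pseudocount of 0.1, 652 of 10438 genes were lower, Rbbp7 among them but not Usp22. Some of these lists share genes.

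The HBO1 and MOZ/MORF list, which shares Meaf6, held 1 gene that passed the rule. Jade2, listed as Phf15, fell from 4.02 to 1.36 FPKM, a log2 ratio of -1.09. It encodes an HBO1 scaffold protein with an EPC-like domain. Its relatives had lower values without passing: Jade3, listed as Phf16, had 4.57 and 2.01 (-0.89), and Jade1, listed as Phf17, had 2.36 and 1.20 (-0.61). Without pseudocount Jade3, at -1.18, was past 2-fold as well, a rule for which no share of all genes is given. With a pseudocount of 0.1, Jade2 and Jade3 were among the 652 of 10438 expressed genes lower by 2-fold. The counting intervals were -1.75 to -1.38 for Jade2, -1.39 to -0.97 for Jade3 and -1.28 to -0.67 for Jade1. The other genes with this domain were not lower as a group. Brpf3 had 25.1 and 34.1, Brd1 had 4.71 and 6.37, and Brpf1 had 20.1 and 18.8. Of all 11 genes of the list 1 was lower and 0 were higher by the 2-fold rule, 5 had ratios above 0 and 6 below, and the median was -0.02. Epc1 and Epc2 together made up 23.3% of the summed FPKM of the 8 genes with the domain in wild type and 27.4% in the library labelled Epc-dKO.

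Among paralogs of the other members, Kat5 was 1 of 3 MYST acetyltransferase genes at about the same level in wild type. Kat7, listed as Myst2, had an FPKM of 22.6 and 22.4, and Kat8, listed as Myst1, had 22.1 and 17.2. Kat5 made up 29.4% of the family sum in wild type and 30.6% in the other library, with Kat6a and Kat6b far lower. Ing3 took 31.5% of the ING family in both libraries, second to Ing1 with 9.55 and 10.5. Trrap took 7.24% of the summed FPKM of the PIKK family in wild type and 4.38% in the other library; the kinase gene Mtor had 77.0 and 105.5, and Atm had 2.55 and 1.47. Ep400 exceeded the remodeler gene Smarca4, which had 62.7 and 47.6.

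**Figure D4:**
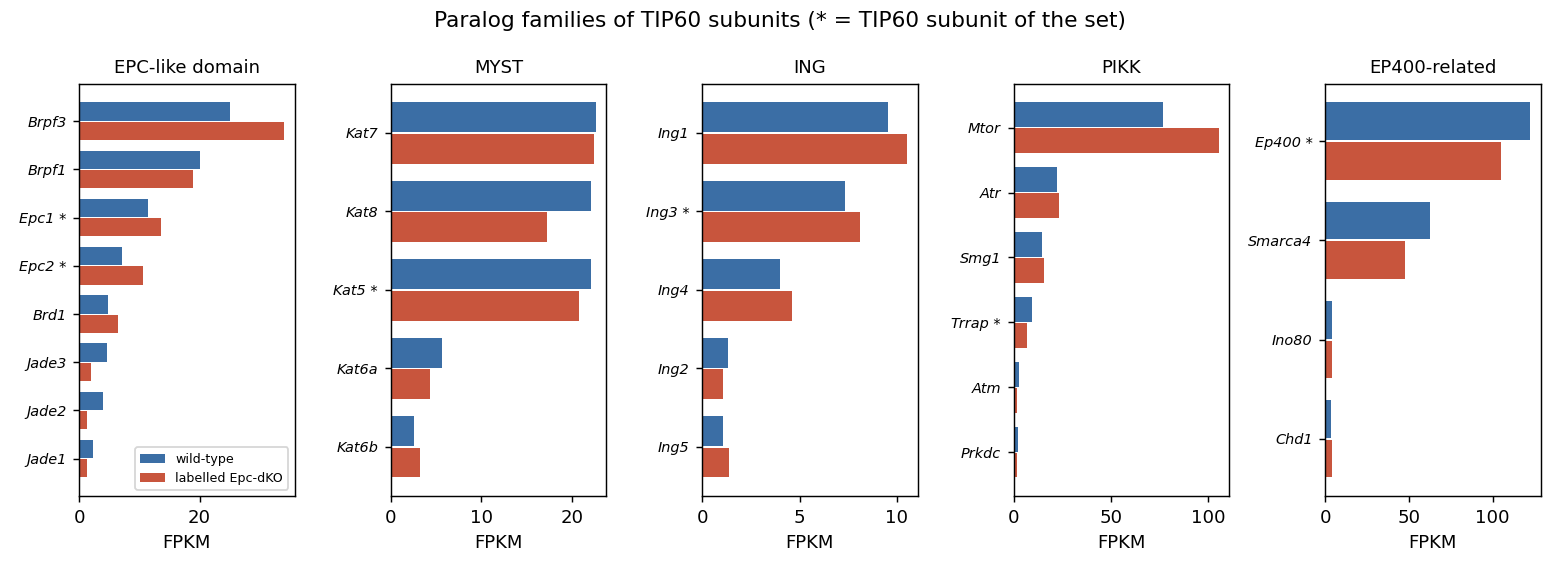
FPKM of the paralog families of EPC1/EPC2, KAT5, ING3, TRRAP and EP400 as bars from 0, blue for the wild-type library and red for the library labelled Epc-dKO, each panel with its own scale; a star marks a member of the 10. The 3 Jade bars are the ones that shrink most in proportion, with Jade2 falling from 4.02 to 1.36.

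The labelled cell type was checked against markers of round spermatids and of other testis cells. All 20 round spermatid markers were expressed, with a median log2 ratio of 0.12, 16 above 0 and 4 below, among them Spaca1 at -0.42. By the 2-fold rule 5 of the 20 were higher and 0 were lower, against 2.75% and 1.88% of all expressed genes. The 5 were Prm2 (3.01), Prm1 (2.82), Tnp2 (1.89), Tnp1 (1.84) and Tssk6 (1.08). The summed FPKM of the 20 was 2332 in wild type and 3219 in the library labelled Epc-dKO. Without the protamine and transition protein genes Prm1, Prm2, Tnp1 and Tnp2 it was 2183 and 2252. Of 12 spermatogonial markers 10 were expressed, and all 10 had ratios below 0 with a median of -0.73. Over all expressed genes 45.6% were above 0 and the median was -0.05. The sum of the 12 was 40.7 and 18.6. The sum over 12 spermatocyte markers was 169.6 and 138.9, or 82.1 and 77.7 without Ccna1. The smaller sum still holds Piwil1, which rose from 20.33 to 27.15 FPKM (log2 ratio 0.40), so its near-equal values rest partly on that gene. Of the 11 expressed markers 3 had ratios above 0 and 8 below, with a median of -0.10. Over 16 matched somatic markers the sum was 51.9 and 35.8, or 37.0 and 29.0 without the Leydig cell gene Insl3, with a median of -0.12 over 9 expressed markers and Cyp17a1 at 0.16. No marker of these lists was at 0 in the table. The spermatogonial markers had the same sign as the JADE genes, the 5 members with ratios below 0 and the 5 other subunit genes below 0. The part of spermatogonia in those values was not tested. In bulk samples, fewer cells of a type and less RNA per cell cannot be told apart.

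Promoter sequences were available for 8 of the 10 genes in a RefSeq table on GRCm38.p6, with a pair of start sites each for Ing3 and Kat5, 10 windows in all from 250 bases before to 50 after a start. They held 13 to 47 CpG dinucleotides, against a median of 7 over 32851 windows of the same length. Motifs were searched on both strands. The cAMP response element TGACGTCA, which the spermatid activator CREM binds, was found in Ing3 only, in both of its overlapping windows, and in 1.79% of all windows. The ETS element CCGGAAGT was found in Kat5 and Dmap1, and in 3.89% of all windows; CCAAT was found in 3 of the 8 genes, and in 37.4% of all windows. TATAAA was found in 0 of the 8 genes, and in 13.6% of all windows. A match is a description of the letters and not a measured site, and these RNA data do not bear on use of any motif. Shown are Epc2, as a gene named by the genotype and the richest of the 8 in G and C (79.7%), Ing3 for its cAMP response element and Kat5, the catalytic subunit, for its ETS elements, with matches in capitals. Epc2 lies on the plus strand at chr2:49451236-49451535, Ing3 on the plus strand at chr6:21949321-21949620 and Kat5 on the minus strand at chr19:5610045-5610344.
Epc2: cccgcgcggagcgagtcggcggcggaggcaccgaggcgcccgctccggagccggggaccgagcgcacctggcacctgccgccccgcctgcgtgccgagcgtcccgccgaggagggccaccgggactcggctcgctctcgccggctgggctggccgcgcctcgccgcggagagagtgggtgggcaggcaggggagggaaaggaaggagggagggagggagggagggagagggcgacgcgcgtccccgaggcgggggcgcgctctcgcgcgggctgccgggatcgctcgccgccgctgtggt
Ing3: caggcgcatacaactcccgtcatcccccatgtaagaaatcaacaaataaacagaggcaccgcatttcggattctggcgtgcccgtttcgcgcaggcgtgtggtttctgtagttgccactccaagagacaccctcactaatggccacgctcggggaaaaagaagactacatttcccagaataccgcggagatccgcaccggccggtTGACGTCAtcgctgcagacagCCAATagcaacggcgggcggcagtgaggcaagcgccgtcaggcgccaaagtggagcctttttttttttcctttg
Kat5: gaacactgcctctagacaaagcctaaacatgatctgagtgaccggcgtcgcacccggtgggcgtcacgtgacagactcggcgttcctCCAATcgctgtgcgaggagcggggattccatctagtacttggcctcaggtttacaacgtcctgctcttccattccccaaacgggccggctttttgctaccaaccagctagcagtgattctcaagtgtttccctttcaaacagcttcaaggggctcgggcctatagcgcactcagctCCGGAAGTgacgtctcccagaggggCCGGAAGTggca
The Epc2 window has no capitals because none of the 4 motifs was found in it. In Ing3 the capitals are the cAMP response element and then a CCAAT box. In Kat5 they are a CCAAT box and then 2 ETS elements past the start.

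Some annotated genes share exon sequence with members. Kat5 overlaps Rnaseh2c on the opposite strand over 426 of 3509 exonic bases, Morf4l1 overlaps a noncoding RNA gene on the opposite strand over 1499 of 9754, and Epc1 overlaps an antisense gene over 322 of 4475. Rnaseh2c had an FPKM of 0.854 and 0.939, far below Kat5. The libraries were directional, but the sources used here give no strand setting for the counting, so reads of these pairs may not have been told apart.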

How the data were processed

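RNA-seq of round spermatids was measured in 1 wild-type and 1 Epc-dKO library. Total RNA went into directional, PCR-amplified Illumina libraries, per the labels' protocols. The authors deposited 1 table of FPKM values per gene; Cufflinks 2.2.1 and mm9 are named in the submitters' processing notes. The sources used here do not give the aligner, annotation, strand setting or scaling between libraries. Of 23235 table rows, 1 held library codes and was left out; 0 symbols were duplicated.

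Libraries were grouped by genotype label. With 1 library per genotype no test was run. Log2 ratios used a pseudocount of 1, and genes whose mean FPKM was at least 1 were counted at 2-fold. Members and gene lists were chosen with earlier results of these data known. All members, any gene of the other-subunit and paralog lists, and the 2 most abundant and 2 most changed genes of each list of a related complex could be named, with the 3 genes nearest to Epc1 and to Epc2; of the related complexes a few are given, and A730098P11Rik, Jade1 and Rnaseh2c were named after their values were seen or for their sequence. Of the list entries, 15 were found through RefSeq synonyms and 3 were not matched. Depth was recovered, by a method chosen after seeing the data, from FPKM steps of genes with 1 GENCODE M21 transcript over 800 nt and an FPKM below 0.3; an effective length of the transcript minus 200 nt gave the sharpest steps. Fragment numbers used the median coding transcript length. The depth recovery and the 2-fold count were tested on simulated data. The simulation used the same lengths for making and for recovering the values, so it does not test the use of lengths from another build. M21 annotates GRCm38, not mm9. Alternatives covered pseudocounts, FPKM minima, rescaling and a 1.5-fold rule. The scripts ran in Python 3.11.15 with SciPy 1.17.1, NumPy 2.4.6, Matplotlib 3.10.9 and pandas 2.3.3.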

Additional observations from a re-analysis of the deposited data

How the results depend on the processing

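The log2 ratios of the 10 genes kept their sign in the 40 values under rescaling, which moved the libraries little against each other. Of the others, 30 (the FPKM minima and the 1.5-fold rule) equal the reported ratio by construction and 20 are pseudocounts, which cannot change a sign. No value passed the fold rule. Kat5 ranged from -0.13 to -0.03 and Epc2 from 0.47 to 0.56. The median of the 10 crossed 0: it was -0.0045 on the TPM scale, -0.0198 with equal upper quartiles and -0.0827 without Epc2. The counts over all genes moved most: 433 higher and 652 lower with a pseudocount of 0.1, 364 lower with 0.5, 166 and 105 at a mean FPKM of 5 or more, which leaves fewer genes, 545 and 1054 after rescaling to TPM, and 837 and 1127 under the 1.5-fold rule, which 1 of the 9 other subunit genes passed. Without small RNA symbols they were 230 and 135; this alternative, the counts of related genes without pseudocount and the marker sums without single genes were chosen after seeing the data. With a pseudocount of 0.5, 48.7% of the calls were higher. Rescaling to TPM kept the minimum and the pseudocount of 1, so 15151 genes were counted in place of 10438. With a pseudocount of 1 in the share itself, Epc2 made up 39.6% of the EPC sum in wild type. No paired analysis was possible because there was only 1 library per genotype. The fragment numbers rest on annotated lengths of another build, so the counting intervals are approximate, and they hold no spread between animals.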
